A study of Mus musculus with 8 samples.

Results

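Matricellular proteins are secreted proteins that sit in the extracellular matrix and act on cells and on matrix assembly rather than bearing load themselves. The genes described here encode tenascins (Tnc, Tnxb, Tnn), periostin (Postn), the collagen-binding glycoprotein osteonectin and its relative hevin (Sparc, Sparcl1), osteopontin (Spp1), the spondins (Spon1, Spon2) and polydom (Svep1). A gene was included when a row of the array table carried its symbol alone, and the row with the highest mean was kept where a gene had several. That gave 9 of the 10 genes, out of 22180 genes measured in all; Spp1 was not analysed here. The set was named by gene family, and its genes were chosen with earlier results of these data known.

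The samples were thoracic aortas of C57BL/6 mice taken at postnatal day 0. They came from wild-type pups and from pups that lack the gene for fibulin-4, a secreted protein that elastic fibre assembly depends on; how the allele was made is not given in the sources used here. The ascending segment began at the aortic valve and ended at the ductus arteriosus, and the descending segment lay between the vena cava and the diaphragm. Each sample pooled the same segment from 8 pups of one genotype, and 2 pools, labelled as biological replicates, made up each of the 4 groups (wild-type ascending, wild-type descending, knockout ascending, knockout descending), so 8 arrays were compared.

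Many of these proteins are abundant in developing connective tissue, fall in the resting adult vessel wall and return when it is injured or remodelled. They bind integrins on smooth muscle cells and fibroblasts, and several also bind fibrillar collagen and influence how its fibrils are laid down or cross-linked. Tenascin-C and periostin in particular are known from remodelling arteries and from diseased heart valves.

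Values are deposited log2 expression values, so a difference of 1 is a 2-fold difference, and levels of different genes are not set against each other because each has its own probes. Across arrays the median of all genes lay between 4.98 and 5.08. The interquartile range was 1.80 and 1.74 on the second wild-type ascending and wild-type descending arrays and 2.14 to 2.28 elsewhere, and results were therefore also computed without that pair. Of the 12 markers of smooth muscle, the main cell of the aortic wall, the contractile genes Acta2, Tagln and Myh11 ranged from 12.10 to 12.45, from 10.87 to 11.48 and from 8.70 to 9.22 over the 8 arrays, and the lowest single value of the list was 5.24, for Pln. No check of the genotype labels was made, since the deleted gene was not analysed here. Unless stated otherwise, tests are from limma, fitted on all 22180 genes with p adjusted over all of them, and a gene is called at an adjusted p under 0.05. Because the tissue is bulk, fewer cells of a type and less RNA per cell cannot be told apart.

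Svep1 had the widest range of the 9 genes, 2.67 on the log2 scale between its lowest and highest group mean. It encodes polydom, a large multidomain matrix protein that binds integrin alpha-9 beta-1 and is needed for lymphatic vessels to mature. Its log2 values were 5.64 and 5.33 in wild-type ascending, 6.81 and 6.56 in wild-type descending, 6.97 and 7.02 in knockout ascending, and 8.23 and 8.08 in knockout descending aorta. The groups thus stood in the order wild-type ascending, wild-type descending, knockout ascending, knockout descending, with no overlap between any of them; the middle pair lay closest and was not tested against each other. Every knockout array was above every wild-type array on this row, the one with the highest mean, but not on a dimmer row given below.

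The knockout raised Svep1 by 1.49 (SE 0.18) over both segments, which is 2.81-fold with a 95% interval from 2.14 to 3.70 and an adjusted p of 0.0202. It was the 1 gene of the 9 to be called, where 0.0721% of all genes were. In the ascending aorta the difference was 1.51 (SE 0.25, unadjusted p = 0.00015, adjusted p = 0.145), and in the descending aorta 1.47 (SE 0.25, unadjusted p = 0.000183, adjusted p = 0.245). The difference between those 2 effects was 0.04 (SE 0.35), with a 95% interval from -0.75 to 0.83. Across segments, the kept row of Svep1 was lower in the ascending aorta by a similar amount in both genotypes. The ascending minus descending difference was -1.20 (SE 0.25) in wild-type and -1.16 (SE 0.25) in knockout mice. Its average over genotypes, a comparison added after the data were seen, was -1.18 (SE 0.18). None of these 3 segment differences passed the test, with adjusted p of 0.359, 0.550 and 0.0989.

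The call of Svep1 depended on which arrays and which row were used. The adjusted p was 0.0935 and 0.098 without replicate 1 or 2 of wild-type descending, 0.133 and 0.206 without replicate 1 or 2 of knockout ascending, 0.165 and 0.141 without replicate 1 or 2 of knockout descending aorta, and 0.0645 without both wild-type arrays of narrow range, while the log2 difference stayed between 1.35 and 1.57. A dimmer Svep1 row had values of 5.61 and 5.16 in wild-type ascending, 6.03 and 5.63 in wild-type descending, 6.28 and 5.75 in knockout ascending, and 6.33 and 6.37 in knockout descending aorta. The genotypes overlapped on that row, with 5.75 in knockout ascending below 6.03 in wild-type descending aorta. In a separate limma fit of all 41345 rows of the table, that row gave a knockout effect of 0.57 (SE 0.22, unadjusted p = 0.0342, adjusted p = 0.574), and with the mean of both rows the effect was 1.03 (adjusted p = 0.108).

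**Figure D1:**
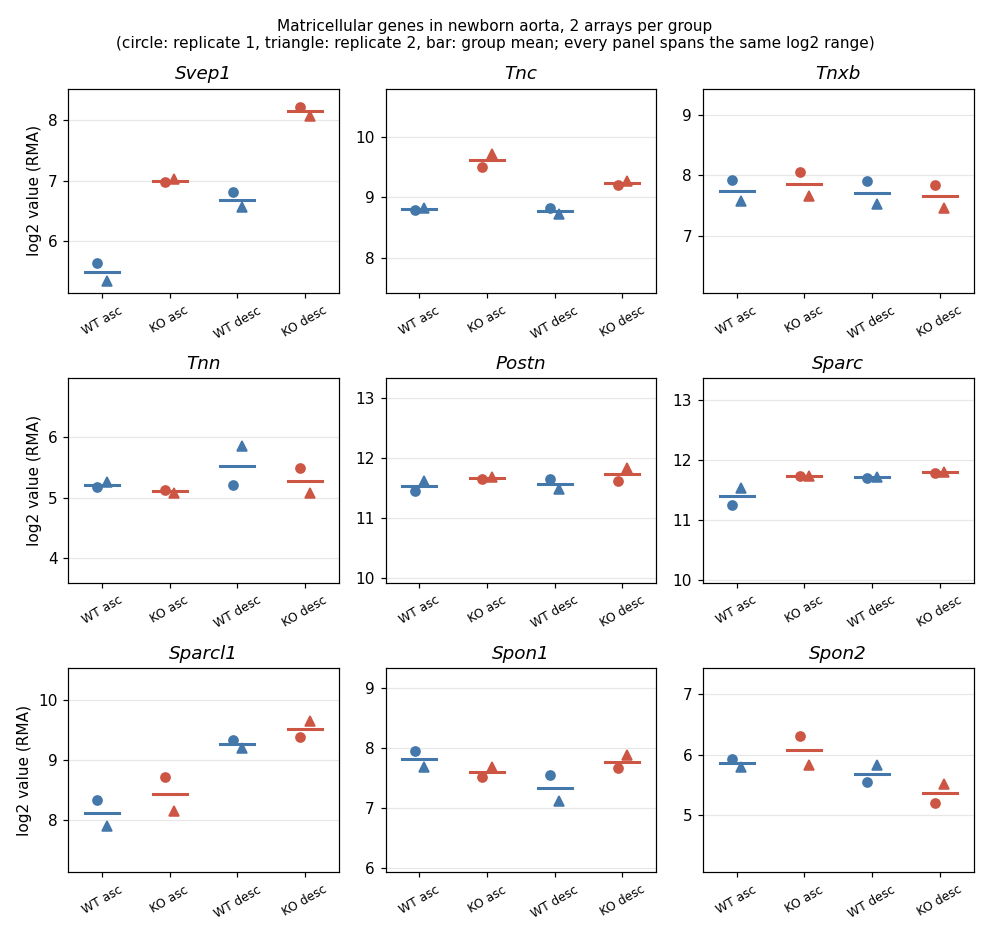
Log2 expression values of the 9 matricellular genes in the 4 groups (WT wild-type, KO knockout, asc ascending, desc descending); circles are replicate 1, triangles replicate 2 and bars group means, with the same log2 span in each panel. Svep1 climbs from 5.48 in wild-type ascending to 8.16 in knockout descending aorta, the knockout values of Tnc lie above its wild-type values, Sparcl1 separates by segment, and the values of Postn lie within 11.45 to 11.84.

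The tenascins are large glycoproteins of several arms that bind integrins and other matrix proteins. Tnc encodes tenascin-C, which appears in embryonic and remodelling tissue and modulates cell adhesion to fibronectin. Its log2 values were 8.79 and 8.82 in wild-type ascending, 8.83 and 8.72 in wild-type descending, 9.51 and 9.72 in knockout ascending, and 9.20 and 9.28 in knockout descending aorta. Wild-type arrays of both segments lay within 8.72 to 8.83, and all 4 knockout arrays lay above them.

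For Tnc the knockout effect was 0.64 (SE 0.17) over both segments, or 1.56-fold with a 95% interval from 1.20 to 2.02, and it was not called (unadjusted p = 0.00378, adjusted p = 0.253). Within segments it was 0.81 (SE 0.24, adjusted p = 0.415) in the ascending and 0.46 (SE 0.24, adjusted p = 0.849) in the descending aorta. The difference between these effects was 0.35 (SE 0.33, 95% interval from -0.40 to 1.10). Knockout ascending arrays were above knockout descending arrays by 0.38 (SE 0.24, unadjusted p = 0.144), whereas the wild-type segment difference was 0.03 (SE 0.24).

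Tnxb encodes tenascin-X, a tenascin of loose connective tissue that binds collagen fibrils and whose absence in humans gives a form of Ehlers-Danlos syndrome. Its values were 7.92 and 7.57 in wild-type ascending, 7.90 and 7.53 in wild-type descending, 8.06 and 7.66 in knockout ascending, and 7.84 and 7.46 in knockout descending aorta. The 4 groups overlapped throughout, and the knockout effect was 0.02 (SE 0.20) over both segments with a 95% interval from -0.43 to 0.48. Tnn, which encodes a tenascin best known from developing bone, ranged from 5.07 to 5.85 over the 8 arrays. Its knockout effect was -0.18 (SE 0.21), with a 95% interval from -0.64 to 0.28. Wild-type descending replicate 2 held the highest Tnn value, 5.85, against 5.21 in the other pool of that group. Without that array the effect of Tnn was -0.02, and without both wild-type arrays of narrow range it was -0.0014.

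**Figure D2:**
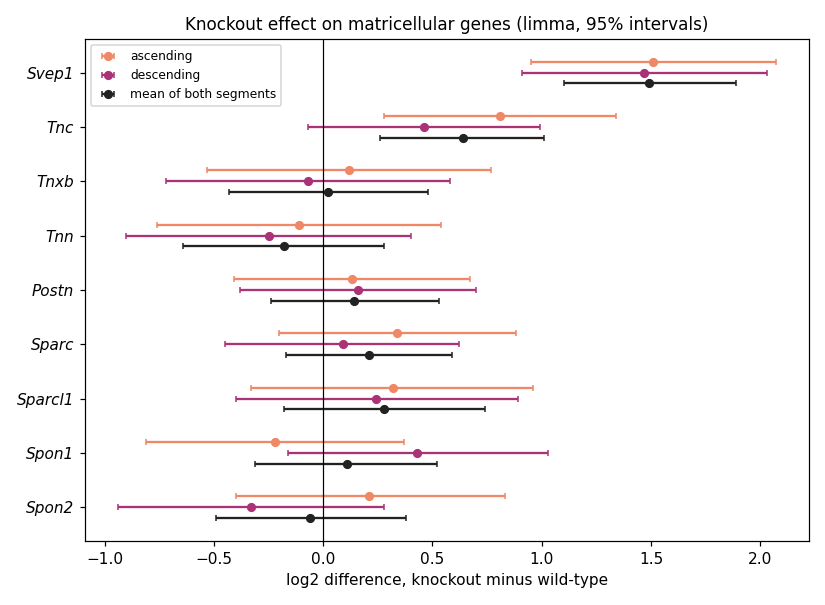
Log2 difference between knockout and wild-type for each gene in the ascending segment, the descending segment and the mean of both, with 95% intervals from limma. Intervals of Svep1 lie above 0 in all 3 comparisons, those of Tnc lie above 0 in the ascending segment and in the mean, and the mean effects of the other 7 genes lie between -0.18 and 0.28 with intervals that include 0.

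Postn encodes periostin, a protein of fasciclin domains that helps activate lysyl oxidase through BMP1 and so promotes collagen cross-linking. Its log2 values were 11.45 and 11.62 in wild-type ascending, 11.65 and 11.49 in wild-type descending, 11.65 and 11.69 in knockout ascending, and 11.62 and 11.84 in knockout descending aorta. The group means spanned 0.19, the smallest span of the 9 genes. The knockout effect was 0.14 (SE 0.17) over both segments, with a 95% interval from -0.24 to 0.53.

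Promoter windows are shown for Svep1 and Tnc, with the highest mean knockout effects of the set, and for Postn, whose group means varied least. Each is the 250 bases upstream of the transcription start listed by RefSeq on GRCm38.p6, the more downstream start where 2 are listed, written 5′ to 3′ on the gene's strand. Svep1 is at chr4:58206597-58206846 on the minus strand, Tnc at chr4:64046937-64047186 on the minus strand, and Postn at chr3:54360857-54361106 on the plus strand. Capitals mark matches, searched on both strands, to the letters of a TATA box, a TEAD site, a SMAD half-site and an AP-1 site, which are spelled out with their positions after the sequences; no match overlapped another.
Svep1: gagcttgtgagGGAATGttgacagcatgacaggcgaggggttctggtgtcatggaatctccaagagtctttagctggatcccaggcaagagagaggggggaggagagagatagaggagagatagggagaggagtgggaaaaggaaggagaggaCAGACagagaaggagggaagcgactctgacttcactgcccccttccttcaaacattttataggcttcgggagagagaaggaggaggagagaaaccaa
Tnc: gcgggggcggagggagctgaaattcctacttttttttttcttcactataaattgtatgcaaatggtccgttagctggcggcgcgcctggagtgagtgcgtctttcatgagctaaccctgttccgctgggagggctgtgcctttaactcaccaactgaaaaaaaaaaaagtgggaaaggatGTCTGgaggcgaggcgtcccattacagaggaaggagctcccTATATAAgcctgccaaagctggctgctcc
Postn: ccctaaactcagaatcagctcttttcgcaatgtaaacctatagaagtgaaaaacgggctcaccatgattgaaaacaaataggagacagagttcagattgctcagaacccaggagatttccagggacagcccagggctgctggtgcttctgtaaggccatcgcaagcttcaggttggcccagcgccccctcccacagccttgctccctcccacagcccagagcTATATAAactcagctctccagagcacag

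The TATA box letters TATATAA began 29 bases before the start in Tnc and 28 bases before it in Postn, and were not in the Svep1 window; 3.04% of all 32851 listed windows of this length hold them. The TEAD letters, CATTCC, were matched in Svep1, 239 bases before the start, and are held by 12.6% of all windows. The SMAD half-site letters, CAGAC, were matched in Svep1 at 97 and in Tnc at 70 bases before the start, and 42.2% of windows hold them. Of the 10 windows listed for the set, 2 held the TEAD letters, those of Svep1 and Tnn. The SMAD half-site letters were in 7 of the 10, from Postn (at its other listed start), Sparc, Spp1, Svep1, Tnc and Tnxb. The AP-1 letters, TGANTCA, were in none of the 3 windows shown, in 1 of the 10 listed for the set (Tnxb) and in 6.75% of all. These are matches of letters in the listed windows, and binding of any factor was not measured. A start was listed for 7 of the 10 genes.

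Sparc and Sparcl1 encode related calcium-binding glycoproteins. Sparc, or osteonectin, binds fibrillar collagen and affects how procollagen is processed at the cell surface. Its values were 11.26 and 11.54 in wild-type ascending, 11.70 and 11.72 in wild-type descending, 11.74 and 11.73 in knockout ascending, and 11.79 and 11.80 in knockout descending aorta. All 4 knockout arrays were above all 4 wild-type arrays, but by little: the knockout effect was 0.21 (SE 0.17) over both segments, with a 95% interval from -0.17 to 0.59, and it was not called (adjusted p = 0.651). Wild-type ascending replicate 1 had the lowest value, and the effect was 0.34 (SE 0.24) in the ascending and 0.09 (SE 0.24) in the descending segment.

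Sparcl1 encodes hevin, which is also made by blood vessels and astrocytes and is known for roles in cell adhesion and synapse formation. It had values of 8.33 and 7.90 in wild-type ascending, 9.33 and 9.20 in wild-type descending, 8.71 and 8.15 in knockout ascending, and 9.38 and 9.64 in knockout descending aorta. Every ascending array was below every descending array, which held for 1 of the 9 genes and for 2.03% of all genes. Ascending minus descending, the log2 difference was -1.15 (SE 0.29) in wild-type and -1.08 (SE 0.29) in knockout mice. Averaged over genotypes, a comparison added after the data were seen, it was -1.11 (SE 0.20), a ratio of 0.462 with a 95% interval from 0.336 to 0.635, and was not called (unadjusted p = 0.000333, adjusted p = 0.168). The knockout effect on Sparcl1 was 0.28 (SE 0.20, adjusted p = 0.617). It ran from 0.14 without replicate 1 to 0.42 without replicate 2 of knockout ascending aorta, was 0.17 without replicate 2 of wild-type ascending aorta, and was 0.07 after a second quantile normalization.

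The spondins carry thrombospondin type 1 repeats. Spon1 encodes F-spondin, known for guiding axons, and Spon2 encodes mindin, a ligand of integrins on leukocytes. The values of Spon1 were 7.95 and 7.69 in wild-type ascending, 7.55 and 7.12 in wild-type descending, 7.52 and 7.68 in knockout ascending, and 7.66 and 7.88 in knockout descending aorta. Both knockout arrays were thus below both wild-type arrays in the ascending segment (difference -0.22, SE 0.26) and above them in the descending segment (0.43, SE 0.26). Between segments these effects differed by -0.66 (SE 0.37, unadjusted p = 0.111, adjusted p = 1.00), which did not pass the test.

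Spon2 had values of 5.92 and 5.80 in wild-type ascending, 5.55 and 5.82 in wild-type descending, 6.31 and 5.83 in knockout ascending, and 5.20 and 5.51 in knockout descending aorta. Its knockout effect was 0.21 (SE 0.27) in the ascending and -0.33 (SE 0.27) in the descending segment, and the difference between them was 0.54 (SE 0.39, unadjusted p = 0.193). In knockout mice the ascending arrays were above the descending ones by 0.72 (SE 0.27, unadjusted p = 0.0266, adjusted p = 1.00).

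**Figure D3:**
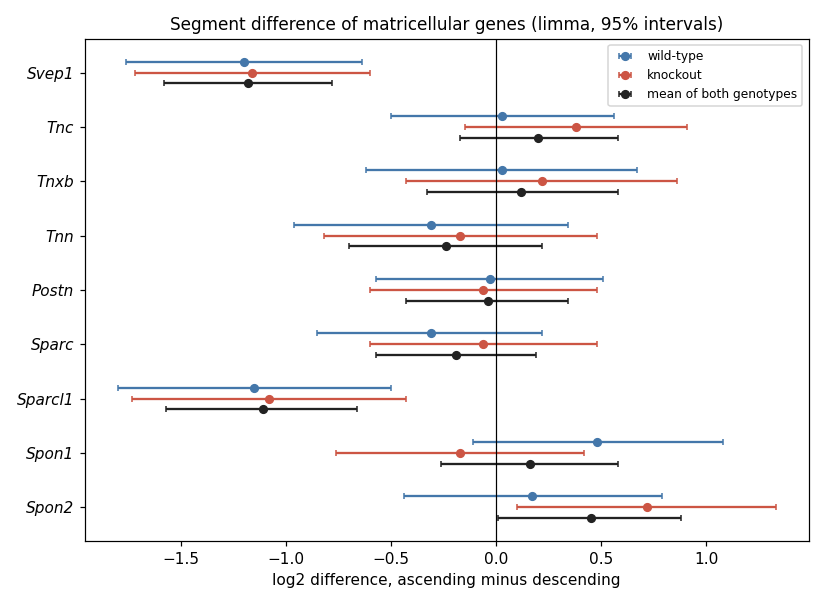
Log2 difference between ascending and descending aorta for each gene in wild-type mice, in knockout mice and averaged over genotypes, with 95% intervals from limma. The average was added after the data were seen. Svep1 and Sparcl1 lie between -1.20 and -1.08 in all 3 comparisons with intervals below 0, and the averaged differences of the other 7 genes lie between -0.24 and 0.45.

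Counted over the set, 7 of 9 genes had a mean knockout effect above 0, against 49.8% of all genes, and the count was 5 of 9 after a second quantile normalization and 5 of 9 without both wild-type arrays of narrow range. The median effect was 0.14, or 0.06 after that normalization, where that of all genes was 0.00. The dimmest 25% of genes held 0 of the set. With those left out, the median of the remaining 16635 genes was 0.055. Of these, 1679 were higher and 477 lower at an unadjusted p under 0.05, so brighter genes leaned upward as well. With an unadjusted p under 0.05 there were 2 of the 9 genes, Svep1 and Tnc, against 11.4% of all genes. Both knockout arrays exceeded both wild-type arrays in 4 of 9 genes of the ascending aorta (Tnc, Postn, Sparc and Svep1), where 21.5% of all genes did, and in 5 of 9 genes of the descending aorta (Tnc, Sparc, Sparcl1, Spon1 and Svep1), where 21.6% did. They were lower in 2 of 9 ascending (Tnn and Spon1; 18.3% of all genes) and 1 of 9 descending (Spon2; 15.8% of all genes). All 4 knockout arrays lay above all 4 wild-type arrays in 3 of 9 genes (Tnc, Sparc and Svep1), where 4.76% of all genes did, and below them in 0 of 9, where 1.98% did. Within segments, effects were above 0 in 7 of 9 genes in the ascending (49.3% of all genes) and 6 of 9 in the descending aorta (53.7%), and both comparisons enter the average; the segment comparisons use the same 8 arrays. The difference between those effects was above 0 in 7 of 9 genes (47.6% of all genes).

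Ascending minus descending differences were above 0 in 4 of 9 genes in wild-type mice (51.7% of all genes), 3 of 9 in knockout mice (48.3%) and 4 of 9 on average (50.2%). Both ascending arrays were below both descending arrays for Sparc, Sparcl1 and Svep1 in each genotype, which is 3 of 9 genes where 14.1% of all genes did so in wild-type and 20.8% in knockout mice. They were above for Spon1 in wild-type mice (1 of 9; 15.9% of all genes) and for Tnc and Spon2 in knockout mice (2 of 9; 18.3%). All 4 ascending arrays were above all 4 descending arrays in 0 of 9 genes, where 1.74% of all genes were.

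Limma called 0 of the 9 genes in the ascending comparison (0% of all genes), 0 in the descending comparison (0.00451%), 0 in the segment difference of wild-type (0.00902%) or knockout mice (0%), 0 in its average (0.0225%) and 0 in the difference between segments (0%). At an unadjusted p under 0.05 the counts were 2 in the ascending comparison (8.90% of all genes), 1 in the descending comparison (5.95%), 2 for segments in wild-type (6.19%), 3 for segments in knockout mice (4.04%), 3 for their average (6.61%) and 0 for the difference between segments (3.30%). Svep1 was among those of every comparison except the last, Tnc among the ascending ones, Sparcl1 among the segment differences of both genotypes and their average, and Spon2 among those of knockout mice and the average.

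Other genes of the same functional class were taken from a list of 28, all measured: thrombospondins, CCN proteins, SMOC and testican relatives of Sparc, and bone phosphoproteins related to osteopontin. Averaged over segments, 18 of 28 had an effect above 0, against 49.8% of all genes, and the median effect was 0.27. This median became 0.09 after a second quantile normalization and 0.13 without both wild-type arrays of narrow range. With an unadjusted p under 0.05 there were 10 higher and 1 lower, against 1678 and 850 of all 22180 genes. Limma called 1 of the 28, where 0.0721% of all genes were called. That 1 was Thbs1, which encodes thrombospondin 1. It had 6.74 and 7.10 in wild-type ascending, 7.08 and 6.15 in wild-type descending, 9.50 and 10.05 in knockout ascending, and 8.61 and 9.06 in knockout descending aorta, a difference of 2.54 (SE 0.26, adjusted p = 0.0144). The call of Thbs1 was lost without replicate 2 of wild-type descending (adjusted p = 0.0571), without replicate 1 or 2 of knockout ascending (0.107 and 0.14) and without replicate 1 or 2 of knockout descending aorta (0.0979 and 0.141).

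Next by p in that list were the CCN genes Ccn2 (1.36, SE 0.25, adjusted p = 0.111) and Ccn1 (1.63, SE 0.32, adjusted p = 0.132), which encode integrin-binding proteins that respond to stretch and to TGF-beta. Smoc1, a relative of Sparc, stood at 1.15 (SE 0.27, adjusted p = 0.541) in the descending aorta. For the ascending segment 16 of 28 genes were above 0 (49.3% of all genes), with a median of 0.13. That median was -0.03 without both wild-type arrays of narrow range. For the descending segment 21 of 28 were above 0 (53.7% of all genes), with a median of 0.32. Limma called 0 of the 28 in either segment. At an unadjusted p under 0.05, 9 were higher and 0 lower in the ascending segment, against 1177 and 798 of all 22180 genes. In the descending segment 8 were higher and 1 lower, against 805 and 514.

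Receptors and binding partners of these proteins, among them integrin subunits, syndecan, fibronectin and fibrillar collagen, made a second list of 30 genes, all measured. Averaged over segments, 25 of 30 had an effect above 0, against 49.8% of all genes, and the median effect was 0.42. Here 14 were higher and 0 lower at an unadjusted p under 0.05, against 1678 and 850 of all 22180 genes. After a second quantile normalization 9 were higher, against 1091 of all genes. Limma called 0 of the 30. The smallest p was that of Itga5, the fibronectin receptor subunit, at 1.35 (SE 0.19, adjusted p = 0.0536). Fn1, which encodes fibronectin, stood at 0.90 (SE 0.18, adjusted p = 0.132), and Itgav, a subunit of receptors for periostin, tenascin-C and osteopontin, at 0.89 (SE 0.19, adjusted p = 0.170). Itga2, a collagen receptor subunit, stood at 0.86 (SE 0.27, adjusted p = 0.754) in the descending aorta. In the ascending segment 25 of 30 effects were above 0 (median 0.39), against 49.3% of all genes. There 7 were higher and 2 lower at an unadjusted p under 0.05, against 1177 and 798 of all 22180 genes. The descending segment had 24 of 30 effects above 0 (median 0.37), against 53.7% of all genes. There 9 were higher and 0 lower, against 805 and 514 of all genes. Without both wild-type arrays of narrow range the median over both segments was 0.25, and after a second quantile normalization 0.24.

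**Figure D4:**
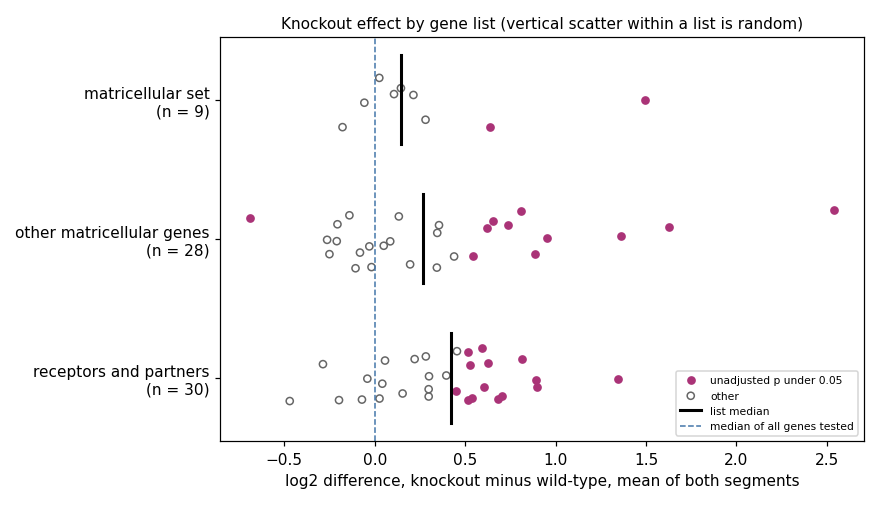
Log2 difference between knockout and wild-type, averaged over segments, for the 9 matricellular genes, the 28 other genes of the class and the 30 receptors and partners; each point is a gene, filled where its unadjusted p was under 0.05, and vertical bars are list medians. The medians are 0.14, 0.27 and 0.42 (0.06, 0.09 and 0.24 after a second quantile normalization), and the point farthest to the right is Thbs1 at 2.54.

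Patterns over the 8 arrays were compared by Pearson's correlation across 14578 genes, which leave out the dimmest 25% and predicted, RIKEN, olfactory and vomeronasal receptor, microRNA and small nucleolar genes, as a description with no test, since the arrays of a group share genotype and segment. The genes most like Svep1 were Prss35, a secreted protease-like protein (r = 0.978), Slit2, a secreted guidance protein (r = 0.973), and Cyp1b1, a cytochrome P450 (r = 0.973). Cyp1b1 showed the same arrangement of differences, with a log2 knockout effect of 1.24 and 0.92 in ascending and descending aorta and a segment difference of -1.27 and -0.95 in wild-type and knockout mice. Closest to Tnc were Cbl, a ubiquitin ligase (r = 0.992), Plaur, the urokinase receptor (r = 0.991), and Actn1, an actin cross-linker (r = 0.983). Plaur stood at 1.54 in the ascending and 0.87 in the descending knockout effect. Sparcl1 was followed by Il33, a cytokine of stromal and endothelial nuclei (r = 0.972), Tpbgl (r = 0.953) and Lrrc43 (r = 0.951), and Il33 had segment differences of -0.98 and -1.02.

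Markers of other cell types moved along the same comparisons. Macrophage markers were above 0 in 14 of 14 genes in the averaged knockout effect (median 0.85), against 49.8% of all genes. Of the 14, 11 were higher at an unadjusted p under 0.05, against 1678 of all 22180 genes. Their mean deviation from the 8-array mean was -0.67 to -0.12 on wild-type and 0.10 to 0.54 on knockout arrays. Tendon markers (-0.50 to -0.02 on wild-type and 0.10 to 0.37 on knockout arrays) and smooth muscle markers (-0.28 to -0.04 and 0.07 to 0.21) also separated the genotypes without overlap, as did Svep1, Tnc and Sparc. Tendon markers had a median knockout effect of 0.62 (5 of 7 above 0), smooth muscle markers 0.27 (10 of 12), cardiomyocyte markers 0.27 (9 of 12), adventitial fibroblast markers 0.18 (8 of 11) and Schwann cell markers 0.13 (5 of 7). Cartilage and bone markers stood at -0.06 (4 of 11 above 0), endothelial markers at -0.42 (0 of 12), skeletal muscle markers at -0.52 (2 of 12) and adipocyte markers at -0.70 (1 of 12). By segment, skeletal muscle markers stood at -1.61 (1 of 12 above 0) in the ascending and 0.39 (8 of 12) in the descending aorta, and endothelial markers at -0.73 (1 of 12) and -0.11 (4 of 12). Of all genes, 49.3% were above 0 in the ascending and 53.7% in the descending comparison. After a second quantile normalization the median turned to -0.01 for fibroblast and 0.02 for cartilage and bone markers, and was 0.08 for cardiomyocyte and 0.14 for smooth muscle markers. Without both wild-type arrays of narrow range it was 0.05 for fibroblast, -0.29 for skeletal muscle and 0.43 for tendon markers (4 of 7 above 0). The median of the tendon markers in the descending aorta was 0.61, and -0.05 without those arrays.

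Between segments, several lists had medians below 0 in the ascending minus descending difference averaged over genotypes, the direction of Svep1 and Sparcl1. The median was -0.96 for adipocyte markers (11 of 12 below 0), -0.53 for endothelial (11 of 12), -0.29 for cardiomyocyte (9 of 12), -0.14 for fibroblast (7 of 11), -0.12 for cartilage and bone (6 of 11), -0.11 for macrophage (8 of 14) and -0.11 for Schwann cell markers (5 of 7). It was 0.02 for tendon and 0.13 for smooth muscle markers. Of all genes, 50.2% had an averaged segment difference above 0. Skeletal muscle markers had a median of 1.91 in wild-type (11 of 12 above 0) and 0.14 in knockout mice (8 of 12), and their mean deviation was 0.67 and 1.64 on the wild-type ascending arrays. On single arrays the adipocyte markers ran from -0.76 to 0.00 in ascending and from -0.15 to 1.47 in descending samples, and the endothelial markers from -0.74 to 0.14 and from 0.10 to 0.56. The part of these cell types in the values of Svep1, Tnc, Sparc and Sparcl1 was not tested.

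**Figure D5:**
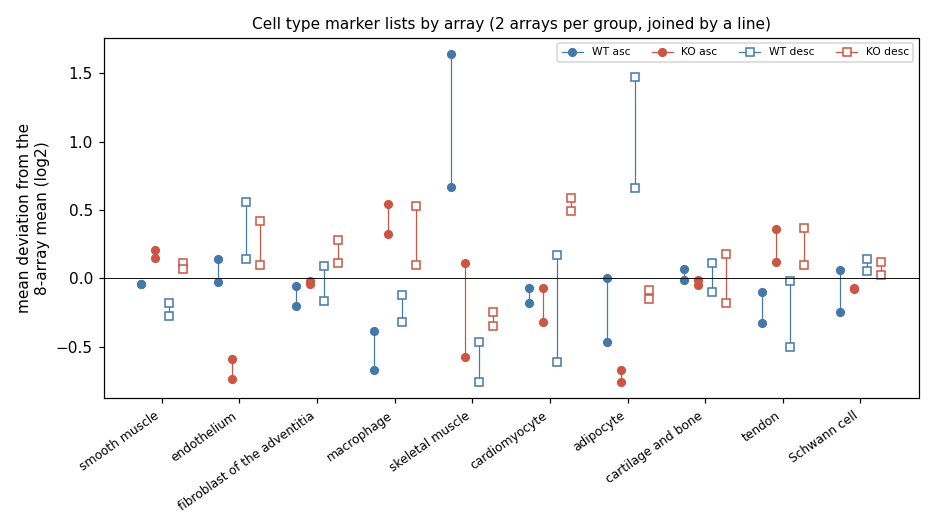
Mean deviation of each cell type marker list from its 8-array mean, on the log2 scale, with the 2 arrays of a group joined by a line; blue is wild-type, red knockout, filled circles ascending and open squares descending. Macrophage markers run from -0.67 to -0.12 on wild-type and from 0.10 to 0.54 on knockout arrays, and adipocyte markers reach 1.47 in wild-type descending aorta.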

How the data were processed

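Per the labels' protocols, 5 ng of total RNA from each pool was amplified, biotin-labelled and put on an Affymetrix array. The authors deposited 1 log2 value per row and array; the submitters' processing notes name Expression Console and RMA, and the sources used here give neither a version nor a genome build. RMA compresses differences of dim genes. Of 41345 rows, 23521 carried 1 gene symbol in the platform annotation, 1814 carried several and 16010 were not listed; the row with the highest mean was kept for each of 22180 genes. Array number limits precision, and the spread is that between pools.

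Log2 values were fitted in limma 3.58.1 (R 4.3.3) with 4 group means over 8 arrays (4 residual and 5.52 prior degrees of freedom), with no block because the labels do not say that replicate numbers pair pools. p was adjusted by Benjamini-Hochberg over all genes within a comparison. The genes, the lists and the rule for naming list genes (each called gene and, for each knockout effect, the 3 with the smallest unadjusted p) were chosen with earlier results of these data known. For the 3 genes with the widest range of group means, which include the called gene, the 3 most correlated genes are named. The procedure was tested on simulated data. Alternatives were array scaling (2 ways), the filter on dim genes, the rows used, a replicate block, only the groups compared, the variance model, array weights and arrays left out. Figures were drawn with matplotlib 3.10.9 (Python 3.11.15).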

Additional observations from a re-analysis of the deposited data

How the results depend on the processing

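The number of the 9 genes called for the averaged knockout effect was 1, Svep1, and 0 after a second quantile normalization (its adjusted p was then 0.0569), 0 with the mean of a gene's rows (0.108), 0 with every row of the table tested (0.265) and 0 without both wild-type replicate 2 arrays (0.0645); with single arrays left out it ranged from 0 to 1. In the other 6 comparisons it was 0 under each alternative run. With a replicate block the value of Svep1 was 1.49 (adjusted p = 0.0256), and the block changed no call among the 9 genes. That block was a single term shared by all groups, so it cannot show whether the segments of a genotype shared pups. The correlation across genes of the replicate difference between groups ran from -0.078 to 0.292, which does not show that the numbers pair pools. The highest value was that of the ascending and descending segments of wild-type mice, and those of knockout mice gave -0.017. The main fit treated all 8 arrays as independent. If both segments came from the same pups, the SE of the averaged knockout effect could be too small. The 16 genes called over the whole table became 35 without the dimmest 25% of genes, 2 after quantile normalization, 1 with every row and 25 without both wild-type replicate 2 arrays, and 0 to 50 with single arrays left out. In the other comparisons the counts ranged over all alternatives from 0 to 14 (ascending), 0 to 7 (descending), 0 to 23 (segments in wild-type), 0 to 18 (segments in knockout), 0 to 22 (their average) and 0 to 1 (difference between segments).

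Of 1022 recomputed differences of the 9 genes, 975 kept their sign and their side of the threshold, 10 lost the call and 37 changed sign. None of the 37 was called, and the cause was not tested. For the difference between segments this tally holds only Svep1, Tnc, Spon1 and Spon2. After quantile normalization the averaged knockout effect was -0.20 for Tnxb and -0.13 for Spon1, the ascending effect -0.10 for Tnxb and -0.01 for Postn, the descending effect -0.0012 for Sparc, and the wild-type segment difference 0.04 for Postn. Without both wild-type replicate 2 arrays the averaged effect was -0.16 for Tnxb and -0.06 for Spon1, the ascending effect of Tnxb -0.06, the descending effect of Tnn 0.07 and the wild-type segment difference of Tnc -0.04. With single arrays left out, the averaged effect ranged from -0.07 to 0.12 for Tnxb, -0.0012 to 0.21 for Spon1 and -0.18 to 0.06 for Spon2. The ascending effect ranged from -0.08 to 0.32 for Tnxb and -0.02 to 0.45 for Spon2, and the descending effect from -0.26 to 0.12 for Tnxb and -0.57 to 0.07 for Tnn. The wild-type segment difference ranged from -0.02 to 0.08 for Tnc, -0.16 to 0.22 for Tnxb, -0.63 to 0.0091 for Tnn and -0.12 to 0.06 for Postn. In knockout mice it ranged from -0.38 to 0.04 for Tnn and -0.17 to 0.05 for Postn, averaged over genotypes from -0.10 to 0.0096 for Postn, and the difference between segments from -0.11 to 0.19 for Svep1. Of the named list genes, 306 of 318 recomputed differences kept sign and side of the threshold, 7 lost a call, 5 gained one and 0 changed sign; Thbs1 had an adjusted p of 0.0569 after quantile normalization and 0.265 with every row.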

Other observations

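Tnxb differed more between replicate numbers than between groups: replicate 1 was above replicate 2 by 0.36 and 0.38 in the ascending and descending aorta of wild-type mice, and by 0.40 and 0.38 in those segments of knockout mice. None of the other genes of the set had the same sign in all 4 groups; for Sparcl1 the differences were 0.42, 0.14, 0.57 and -0.25. Whether replicate numbers mark a shared dissection or hybridisation is not stated in the labels, and this pattern was picked after the values were seen. Its cause was not tested.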
